A study of Mus musculus with 24 samples.

Results

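The immunoglobulin (Ig) gene segments of the mouse were followed through lacrimal gland (LG) tissue and cultured lacrimal gland stem cells (LGSCs). The members were all genes that the GENCODE M21 annotation gives an IG gene type, pseudogene types left out, matched by Ensembl identifier. They numbered 268 of the 52636 Ensembl genes listed, with 222 V, 19 D, 14 J and 13 constant (C) genes. The heavy chain locus Igh on chromosome 12 held 144 of them, the kappa locus Igk on chromosome 6 held 106 and the lambda locus Igl on chromosome 16 held 12. The other 6 carried provisional Gm names, 4 V genes on chromosome 6 and 2 D genes on chromosome 12.

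The samples were C57BL/6 mouse LG of the adult, of embryos at E17.5 and of embryos at E19.5 (days of gestation), with 3 libraries each, and LGSC spheres at passage 2. The spheres were grown without serum in Matrigel with EGF, FGF10, Wnt3A and Y-27632 from dissociated glands of mice 6 to 8 weeks old, and were collected at day 5 (2 libraries) and at days 7, 10 and 14 (3 libraries each). The labels give no sex and no age in weeks for the adult tissue, and they do not say whether replicates came from separate animals or cultures, so p-values measure the spread between these libraries. One further library, of LGSC spheres at passage 10 and day 7, came in a table of its own and entered no test.

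An antibody heavy chain is assembled from 1 V, 1 D and 1 J segment and a light chain from 1 V and 1 J segment, and the joined exon is spliced to a constant region. The heavy chain constant gene sets the class: Ighm gives IgM, Ighd IgD, the Ighg genes IgG, Ighe IgE and Igha IgA. Each B cell makes in principle 1 heavy and 1 light chain, so the V segments found in a tissue reflect which clones are there. Plasma cells, the antibody-secreting descendants of B cells, settle in the adult LG and are known there for IgA, which the epithelium carries into the tears with the receptor Pigr.

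The segments that were most abundant among the V segments of each adult library are printed here from the GENCODE M21 transcripts, because the results turn on them. Each is the last 200 bases of the germline coding strand of the V segment. The capitals run from the last cysteine codon to the end, which is the germline start of CDR3, the part of the antigen-binding site that is joined to D or J. On the GRCm38 assembly Igkv4-57-1 lies on chromosome 6 from 69544359 to 69544907 on the minus strand, Igkv3-10 from 70572633 to 70573230 on the plus strand and Igkv6-17 from 70371439 to 70371993 on the plus strand. Ighv5-9-1 lies on chromosome 12 from 113736111 to 113736630, Ighv1-5 from 114513330 to 114513807 and Ighv1-26 from 114788372 to 114788805, all on the minus strand. The submitters' notes name the older assembly NCBIM37, so these positions are those of the annotation and not of the authors' alignment.
Igkv4-57-1: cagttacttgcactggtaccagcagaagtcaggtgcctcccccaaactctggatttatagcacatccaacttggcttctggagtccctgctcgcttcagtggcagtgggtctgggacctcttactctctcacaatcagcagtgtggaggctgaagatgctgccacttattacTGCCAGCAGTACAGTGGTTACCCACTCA
Igkv3-10: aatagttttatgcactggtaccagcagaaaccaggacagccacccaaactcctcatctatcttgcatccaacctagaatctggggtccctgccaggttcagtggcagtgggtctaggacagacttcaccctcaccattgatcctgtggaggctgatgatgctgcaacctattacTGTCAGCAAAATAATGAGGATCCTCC
Igkv6-17: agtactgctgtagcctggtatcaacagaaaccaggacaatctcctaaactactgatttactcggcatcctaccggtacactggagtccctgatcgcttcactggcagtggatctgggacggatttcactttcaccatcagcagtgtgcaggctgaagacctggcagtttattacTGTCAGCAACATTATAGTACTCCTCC
Ighv5-9-1: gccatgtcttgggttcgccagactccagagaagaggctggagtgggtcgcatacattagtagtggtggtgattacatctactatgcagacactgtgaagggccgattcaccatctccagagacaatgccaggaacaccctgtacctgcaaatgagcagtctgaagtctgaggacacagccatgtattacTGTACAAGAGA
Ighv1-5: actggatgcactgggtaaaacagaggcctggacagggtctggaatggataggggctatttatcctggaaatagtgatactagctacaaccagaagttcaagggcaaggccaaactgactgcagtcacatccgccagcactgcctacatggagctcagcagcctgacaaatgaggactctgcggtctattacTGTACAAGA
Ighv1-26: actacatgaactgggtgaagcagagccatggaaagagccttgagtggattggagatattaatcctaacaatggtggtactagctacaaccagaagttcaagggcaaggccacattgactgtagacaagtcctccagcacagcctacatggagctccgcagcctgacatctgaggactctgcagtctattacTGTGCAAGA

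Over their whole coding length the kappa sequences were 67.0% to 69.3% identical to each other. Ighv1-5 and Ighv1-26, of the same family, were 80.6% identical, and Ighv5-9-1 was 59.5% identical to Ighv1-5. The 5 kappa J segments lie together on chromosome 6 between 70722562 and 70723927 and are shown because very few reads decide their values. Capitals mark the last match to TTCNNNNNNGGN, the place of the conserved turn of J segments. The codon after TTC, left free by the pattern, starts with GG in Igkj1, Igkj2, Igkj4 and Igkj5. In Igkj3 it is AGT, so Igkj3 lacks that part of the turn.
Igkj1: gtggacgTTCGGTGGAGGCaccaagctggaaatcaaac
Igkj2: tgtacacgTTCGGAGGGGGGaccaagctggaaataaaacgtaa
Igkj3: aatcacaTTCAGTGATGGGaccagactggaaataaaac
Igkj4: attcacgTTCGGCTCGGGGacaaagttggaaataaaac
Igkj5: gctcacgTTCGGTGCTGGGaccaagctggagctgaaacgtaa

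Values are FPKM, fragments per kilobase of gene scaled to the depth of the library, as deposited. Reads were recovered from them, because a low FPKM value is a whole multiple of what 1 read is worth. All 472 member values between 0 and 1000 reads came out whole to within 0.01 of a read, as did 92.6% to 93.6% of the values of all features in the 20 tissue and passage 2 libraries. These libraries held 6434281 to 9257025 recovered reads, so counting error is large for short segments, and 1 read on a J segment of 38 bases was worth 10.9 FPKM in adult LG 1. Adult LG 3 stood apart from the other adult libraries: its 10 most abundant genes took 31.3% of the reads, against 60.4% and 59.6%, and Xist was at 74.4 FPKM there, against 0.12 and 0.07. The recovered reads divided by the scale of the FPKM values were 2.667, 2.567 and 1.103 in adult LG 1, 2 and 3 and 0.832 to 1.129 in the other 17 libraries. Of the gland's own markers, Ltf (lactoferrin) was at 0.96, 1.10 and 6.65 FPKM in the adult libraries and the water channel Aqp5 at 0.50, 0.57 and 0.47. The keratin Krt14, a marker of the stem cells, reached 6.51, 17.8 and 9.53 FPKM in day 7 spheres, and Epcam was listed at 0 in all 20 libraries. In the passage 10 library Krt14 was at 7065 FPKM and Epcam at 261 FPKM. Passage and the making of the table cannot be told apart in this gap, so low values above 0 in the 20 libraries, such as those of Krt14, Sdc1 and Prdm1, may be incomplete too. Sphere libraries with number 1 had Xist at 0.01 to 0.03 FPKM at every day, and those with numbers 2 and 3 at 70.4 to 103.9 FPKM.

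Ig segments were abundant in adult LG and close to absent from embryonic LG and from spheres. In adult LG 1, 2 and 3 the tables listed 136, 140 and 149 of the 268 members above 0, 183 in at least 1 library and 102 in all of them. The embryonic libraries listed 1 to 8 members each and the sphere libraries 0 to 5. Summed over all members, the level was 6425, 6168 and 6309 FPKM in the adult libraries, a narrow range. As a share of the recovered reads the same members took 0.0909%, 0.0921% and 0.226%, so that adult LG 3 was the highest by reads and between the others by FPKM. In embryonic libraries the share was 0.000198% to 0.000626%. In the 11 passage 2 sphere libraries it was at most 0.000093%. No group of embryos or spheres overlapped with adult LG in this sum. Of all members, 82 were at 0 in each of the 20 libraries, 52 V, 7 J, 18 D and 5 C genes. In bulk tissue, fewer plasma cells and less Ig RNA per cell cannot be told apart.

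The V segments made up most of the adult signal. The 115 Ighv genes summed to 2637, 3020 and 2395 FPKM in adult LG 1, 2 and 3, on 2396, 3524 and 6861 reads. The 100 Igkv genes summed to 3616, 2971 and 3561 FPKM, on 3221, 3488 and 10045 reads. The ratio of the kappa to the heavy V sum was 1.37, 0.98 and 1.49, a level per length in both cases. Embryonic libraries had 0 to 7 reads over all V segments. The share of kappa among light chain V segments, by summed FPKM, was 99.8% ± 0.058 (SD, n = 3) in adult LG. Iglv3, at 6.53, 7.45 and 4.82 FPKM, was the lambda V segment found. Iglv1 and Iglv2 were listed at 0 in all 20 libraries, which can be a failed estimate as for the constant genes given further on, so the kappa share is a share of the listed segments alone.

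Which V segments were used differed strongly between the adult libraries. Among kappa segments Igkv4-57-1 led in adult LG 1 with 1069 FPKM, and stood at 8.46 and 4.22 FPKM in adult LG 2 and 3. It held 29.9% of the Igkv reads of adult LG 1 (95% exact binomial interval 28.3% to 31.5%), against 0.29% and 0.12% in the others. Igkv3-10 led in adult LG 2, with 23.9, 523.7 and 205.5 FPKM in adult LG 1, 2 and 3. Igkv6-17 led in adult LG 3, with 81.4, 24.3 and 679.2 FPKM. Each of these segments thus led in 1 library alone. Intervals cover counting error only, since reads copied by PCR are not independent molecules.

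**Figure D1:**
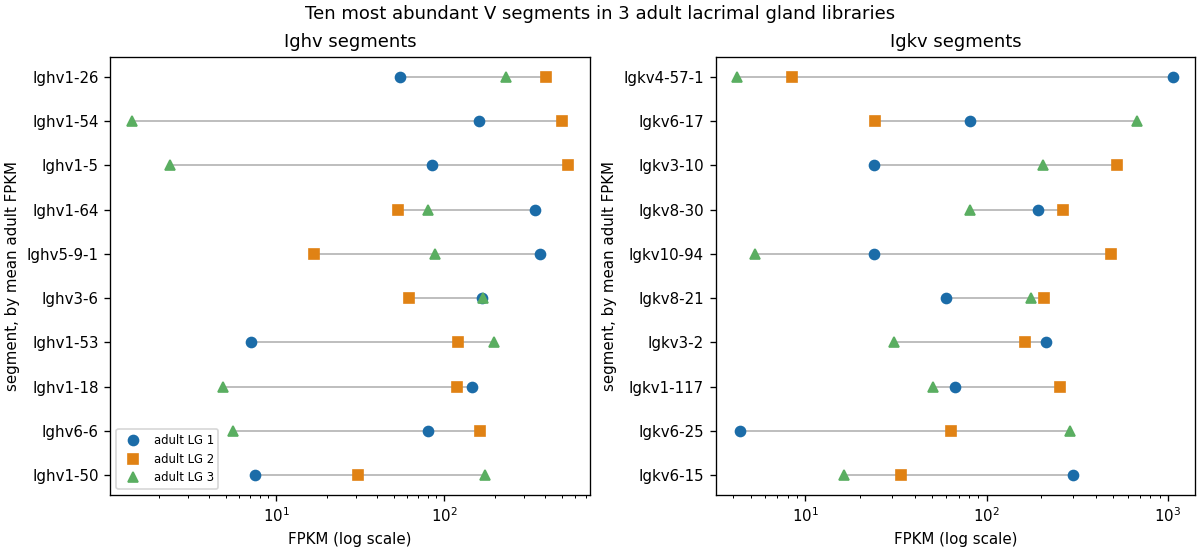
Level in FPKM (log axis) of the 10 most abundant Ighv and the 10 most abundant Igkv segments by adult mean, 1 symbol for each adult LG library and a grey line from the lowest to the highest. The lines are long: Igkv4-57-1 spans 4.22 to 1069 FPKM and Ighv1-54 spans 1.39 to 502.8 FPKM.

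The leading heavy chain segment also differed between the adult libraries. Ighv5-9-1 was at 371.4, 16.8 and 87.9 FPKM in adult LG 1, 2 and 3 and led in adult LG 1. Ighv1-5 led in adult LG 2, at 85.0, 544.6 and 2.32 FPKM. Ighv1-26 led in adult LG 3, at 54.3, 405.3 and 232.7 FPKM, though its highest value was that of adult LG 2. The leading heavy segment took 15.4%, 19.4% and 9.1% of the Ighv reads. Ighv1-54 was nearly level with Ighv1-5 in adult LG 2, with 502.8 FPKM and 17.1% of the reads, and had 1.39 FPKM in adult LG 3. Ighv1-64, at 347.0, 53.0 and 80.6 FPKM, followed Ighv5-9-1 in adult LG 1.

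A few segments carried most of the reads in each library. The 10 highest Ighv segments took 69.3%, 77.0% and 62.0% of the Ighv reads in adult LG 1, 2 and 3, and the 10 highest Igkv segments 74.0%, 77.8% and 68.3% of the Igkv reads. Over all V segments together, the 10 highest held 51.8% ± 7.44 (SD, n = 3) of the summed FPKM. The effective number of segments, which is the number of equally used segments that would give the same concentration, was 14.4, 10.3 and 20.7 for Ighv and 8.6, 11.6 and 14.1 for Igkv. Adult LG 3, the library with the most V reads, had the largest effective number at both loci. Of the 10 highest Ighv segments, libraries 1 and 2 shared 4 (40% of each list of 10), 1 and 3 shared 3 and 2 and 3 shared 2, and none was in all 3 lists. For Igkv the shared numbers were 3, 1 and 3, and again none was in all 3 lists.

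Across the 87 Ighv segments with a read in any adult library, log2(FPKM + 1) correlated between library pairs with Pearson's r of 0.45, 0.41 and 0.42. For the 79 Igkv segments r was 0.57, 0.39 and 0.58. Over the 30824 features listed above 0 in an adult library r was 0.95, 0.88 and 0.91. These are correlations across genes that share the libraries' depth, and genes are not replicates. The spread tells the same. For the 88 V segments whose adult mean reached 10 FPKM, the median SD of log2(FPKM + 1) over the adult libraries was 2.13, against 0.50 over the 4081 listed features at that level. Of the 88 segments, 83 lay above the median of all these features, and 3.85% of all these features lay above the median of the V segments.

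**Figure D2:**
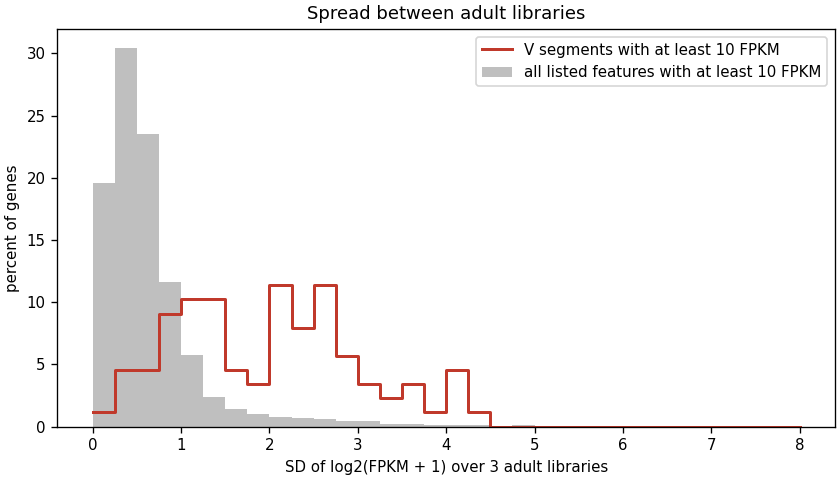
Percent of features (vertical) by the SD of log2(FPKM + 1) over the 3 adult libraries (horizontal), for V segments (red line) and for all listed features (grey bars) with at least 10 FPKM. The grey bars crowd around their median of 0.50, while the red line is spread widely around 2.13.

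Some V segments did keep a level in FPKM. Recovered reads divided by the FPKM scale were 2.667, 2.567 and 1.103 in adult LG 1, 2 and 3. A level even in FPKM is thus a higher share of recovered reads in adult LG 3 than in the others. Ighv1-9, on chromosome 12 from 114583569 to 114584002, had 48.4, 42.2 and 51.2 FPKM in adult LG 1, 2 and 3, and its SD of 0.14 on the log2 scale was the lowest of the 88. Ighv1-72 (SD 0.29) and Ighv1-81 and Ighv8-12 (SD 0.41 each) followed it. At the other end, Igkv1-88 (SD 4.26) had a mean of 54.8 FPKM that came from adult LG 3. Igkv2-112 (SD 4.12) also had a library at 0.

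The V families gave part of the pattern. Family Ighv1, with 47.0% of the Ighv genes, took 52.5%, 77.5% and 53.3% of the Ighv reads in adult LG 1, 2 and 3. Family Ighv5, with 9.6% of the genes, took 25.5%, 1.8% and 21.3%. Among kappa families Igkv4 took 34.3%, 6.5% and 10.3%, Igkv6 19.8%, 7.8% and 30.6%, and Igkv8 15.6%, 18.5% and 14.6%. Igkv8 was thus the most even of the large families and Igkv4 the least even.

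Segments in use came from the whole of both loci. With the genes of a locus split by order from the J cluster into 4 parts of like size, the nearest part of the Ighv genes took 29.6%, 8.6% and 30.2% of the reads in adult LG 1, 2 and 3 and the farthest part 30.1%, 18.0% and 18.8%. The nearest part of the Igkv genes took 38.4%, 40.6% and 52.7% and the farthest 7.3%, 22.0% and 16.7%. The shares did not fall steadily with distance: in adult LG 1 the second part of the Igkv genes took 48.7%, more than the nearest, and in adult LG 2 the third part of the Ighv genes took 43.0%.

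**Figure D3:**
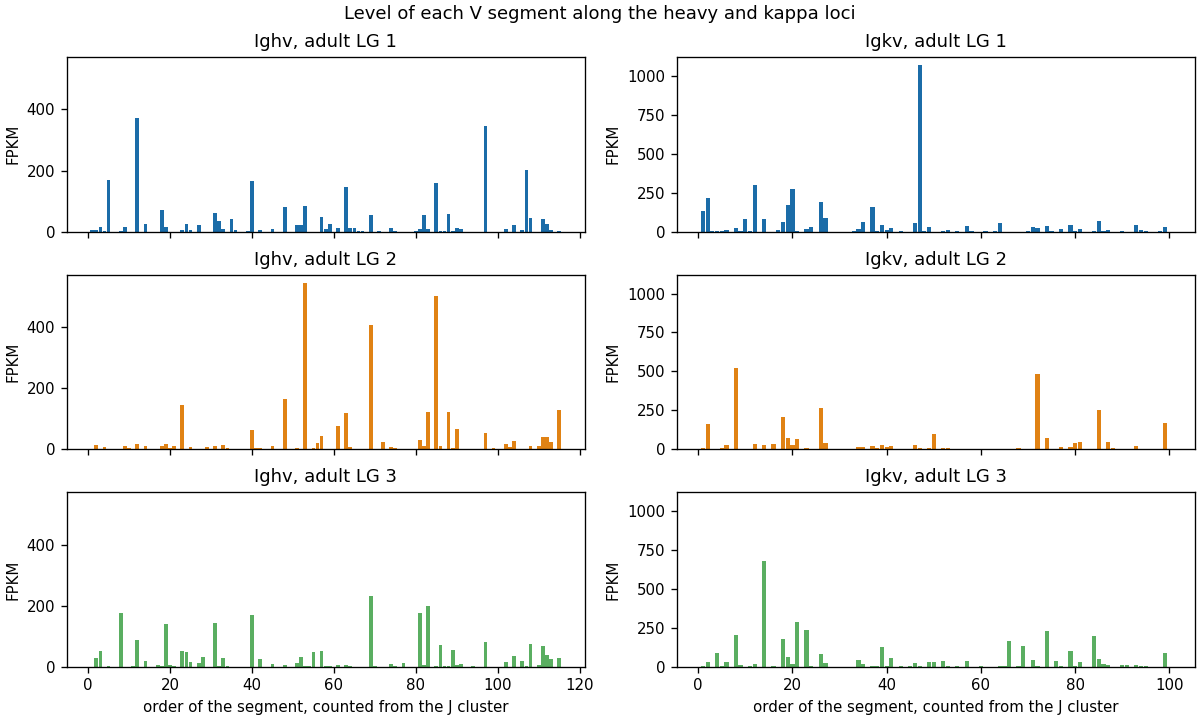
FPKM (vertical) of every Ighv (left) and Igkv (right) segment in each adult LG library, in order from the J cluster (horizontal). Tall bars stand at different places in different libraries, such as Igkv4-57-1 with 1069 FPKM in adult LG 1.

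V segments resemble each other, so reads could be shared between copies. The 20 most abundant V segments and Ighv1-9 were 86.7% to 97.1% identical to their closest copy among the V transcripts. Stretches of 150 bases, the read length, that also occur in another V gene were found for Igkv6-17 (3 of 228), Igkv6-25 (3 of 231) and Igkv3-10 (10 of 207), and for none of the others. The closest copy of Ighv1-53 was the pseudogene Ighv1-62. Somatic mutations of the antibody genes were not examined, and values of close copies such as Ighv1-26 and Ighv1-18 (96.9%) and Igkv10-94 and Igkv10-95 (97.1%) are less certain.

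Among constant genes the tables listed IgG and IgM in adult LG. Ighg2b was at 20.7, 20.0 and 49.1 FPKM in adult LG 1, 2 and 3 and Ighg2c at 10.9, 32.1 and 35.4 FPKM. Ighm was at 7.47, 18.7 and 28.6 FPKM. Ighg1 was lower and less even, at 0.32, 2.68 and 9.91 FPKM. Ighg3 (0.66, 0.38 and 0.26 FPKM), Ighd (0.44, 1.16 and 0.35 FPKM) and Ighe (0.26, 0 and 0.33 FPKM) were near the floor. All of these except Ighg3 and Ighd were higher in adult LG 3 than in adult LG 1. Of the summed heavy chain constant level, IgG genes made up 76.6% ± 3.26 and Ighm 22.1% ± 3.43 (SD, n = 3).

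Igha, the gene of the IgA class, and Igkc, the kappa constant gene, were listed at 0 in all 20 libraries. So were Iglc1, Iglc2 and Iglc4, and Iglc3 was at 3.67, 10.5 and 19.4 FPKM in adult LG. An exact 0 in these tables can be a failed estimate: Gapdh, which all cells use, was also listed at 0 in all 20 libraries. In the passage 10 library 5332 Ensembl genes had at least 10 FPKM, and 611 of them (11.5%) were at 0 in every passage 2 sphere library. The shares of IgA and of kappa among constant genes therefore have no value here, and the shares of IgG and IgM are shares of the listed classes alone. The summed heavy constant genes reached 1.55%, 2.49% and 5.18% of the summed Ighv level in adult LG 1, 2 and 3. What the missing part belonged to was not tested.

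**Figure D4:**
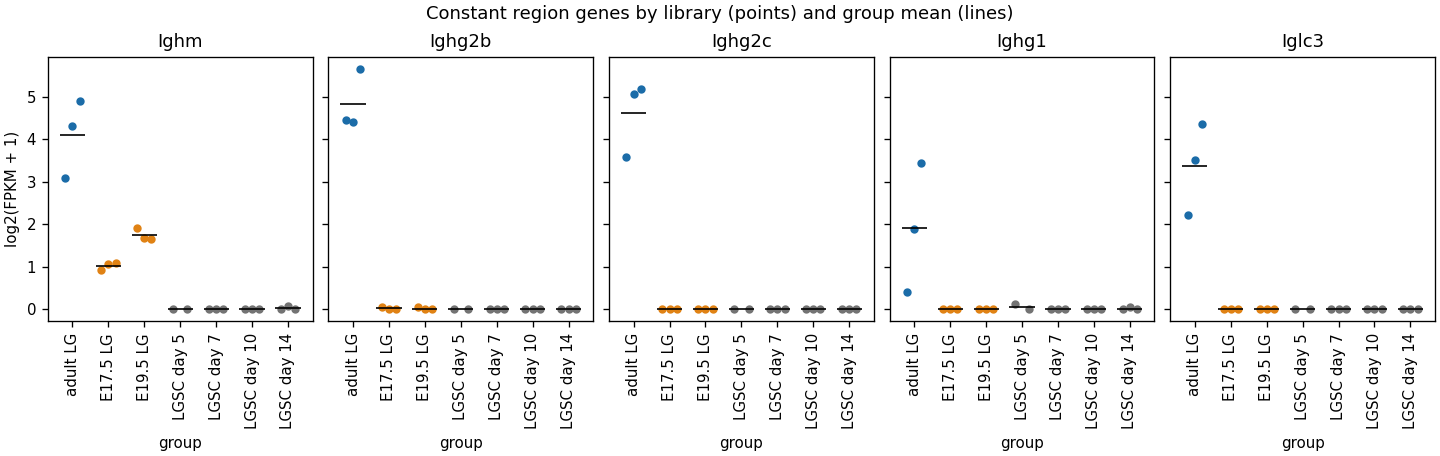
log2(FPKM + 1) of 5 constant genes (panels) in each library (points) and the mean of each group (lines), by tissue and culture day. Adult points lie above all others in each panel, and Ighm shows 2 embryonic steps, at 1.04 FPKM on average at E17.5 and 2.38 FPKM at E19.5.

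J segments were measured on a handful of reads. Igkj3 had 43.6, 33.2 and 41.4 FPKM in adult LG 1, 2 and 3, which were 4, 4 and 12 reads. Igkj1 had 10.9, 8.30 and 38.0 FPKM, Igkj2 0, 14.7 and 27.4 FPKM and Igkj4 65.5, 0 and 69.0 FPKM. Igkj5 was at 0. Igkj3 is known as a J segment that functional kappa chains of the mouse do not use, and by these reads it was not lower than Igkj1 or Igkj2 in any adult library. Among lambda J segments Iglj3p had 0, 16.6 and 27.6 FPKM and Iglj3 0, 8.30 and 0 FPKM. Of the heavy J segments Ighj2 alone was above 0, with 0, 3.15 and 1.31 FPKM. No D segment had a read in adult LG.

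The comparison with embryos asked whether the Ig signal of the adult gland was there before birth. At E17.5, 107 of the 268 members fell below adult LG and none rose, by limma on log2(FPKM + 1) with an adjusted p-value threshold of 0.05. Of all 18578 features tested, 24.9% were called lower and 29.1% higher. 143 members had a mean over the 9 tissue libraries of 0.5 FPKM or more and were tested, nearly all because of their adult level, so the direction over the tested members was largely set by the filter. The adult libraries lay above all E17.5 libraries for 99 members (27.2% of all features did so). With FPKM rescaled to recovered reads, 105 members were lower, and the share of all features called lower fell to 11.6% while that called higher reached 45.8%.

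At E19.5 the picture was the same, against the same adult libraries. Of the 143 members tested, with the same limit from the filter, 107 were lower than in adult LG and none higher. Over all features 23.9% were called lower. Rescaled to recovered reads, 105 members and 11.2% of all features were lower, and the share of all features called higher went from 30.3% to 43.5%. The adult libraries lay above all E19.5 libraries for 98 members, against 25.8% of all features.

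Among the V segments the leading genes of adult LG were at 0 in the embryos. Ighv1-26 had 0 reads in each of the 6 embryonic libraries, and its adult mean of 230.8 FPKM was at least 227-fold higher than E17.5 LG, counting 3 reads per library as the floor. Igkv6-17 (at least 276-fold) and Igkv3-10 (at least 256-fold) were alike. For Igkv4-57-1, with a mean of 360.6 FPKM and a bound of at least 377-fold, the log2 difference was -5.23 (SE 1.67, adjusted p = 0.0275) at E17.5, a larger error than that of the even segments. For Ighv1-9, whose adult libraries were even in FPKM, the log2 difference was -5.59 (SE 0.12, adjusted p = 3.87e-08). Igkj3 gave -5.33 (SE 0.14, adjusted p = 8.52e-08), on the few reads given above. Both of these SEs measure the spread of FPKM between libraries, and the embryonic libraries, all at 0, add none. Ighv1-9 had the lowest adult SD of the 88 V segments, so its SE is no guide to the other segments. Both SEs leave out the counting error, which is large for the few reads of Igkj3. The 2 p-values therefore overstate how well the differences are known. Igkv4-57-1 did not pass with all E19.5 libraries left out of the fit (adjusted p = 0.0677) or with any 1 E17.5 library left out (adjusted p = 0.0663 to 0.0676).

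Some abundant members did not pass. Ighv1-75 (201.2, 0 and 2.11 FPKM in adult LG 1, 2 and 3) had a log2 difference of -3.10 (SE 1.61, adjusted p = 0.134) at E17.5, although the segment was at 0 in all E17.5 libraries. Igkv1-88 had -2.46 (SE 1.69, adjusted p = 0.251). These values did not exceed the spread between the adult libraries.

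Of the 13 constant genes 5 were tested, and all of these, Ighm, Ighg1, Ighg2b, Ighg2c and Iglc3, were lower than in adult LG at both embryonic ages. Another 5 were at 0 in all 20 libraries, and Ighg3, Ighd and Ighe were too low to be tested. Ighg2b had 1 read in 1 of 3 libraries at each embryonic age, with a log2 difference of -4.81 (SE 0.30, adjusted p = 5.46e-06) at E17.5. Ighg2c was at 0 in all embryonic libraries, and adult LG was at least 97.0-fold higher than E17.5 and at least 98.2-fold higher than E19.5 LG. Iglc3 was likewise at 0, with adult LG at least 14.2-fold higher than E17.5 LG. Ighg1 was lower at E17.5 (-1.91, SE 0.62, adjusted p = 0.0282), but not without adult LG 2 (adjusted p = 0.0638), not without any 1 of the E17.5 libraries (adjusted p = 0.0678 to 0.0687) and not when rescaled to recovered reads (adjusted p = 0.0728). The J segments Igkj1 (-4.02, adjusted p = 0.000125), Igkj2 (-2.93, adjusted p = 0.0393) and Igkj4 (-4.06, adjusted p = 0.0369) also passed at E17.5. Igkj2 did not pass with any 1 of the 9 libraries left out except adult LG 1 (adjusted p = 0.0576 to 0.121). Igkj4 did not pass with any 1 left out except adult LG 2 (adjusted p = 0.0545 to 0.114).

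Ighm was the member that embryos did express. It had 0.89, 1.10 and 1.13 FPKM at E17.5 (13, 20 and 17 reads) and 2.79, 2.18 and 2.16 FPKM at E19.5 (46, 37 and 32 reads). The mean of adult LG, 18.3 ± 10.6 FPKM (SD, n = 3), was 17.6-fold that of E17.5 LG and 7.69-fold that of E19.5 LG. The log2 difference from adult LG was -3.07 (SE 0.39, adjusted p = 0.000244) at E17.5 and -2.34 (SE 0.39, adjusted p = 0.00115) at E19.5. In adult LG there were 165, 62.7 and 41.1 V reads for each Ighm read, while the embryos had more Ighm reads than V reads in every library.

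Between E17.5 and E19.5 no member passed by limma, and none had an unadjusted p under 0.05. Limma-voom on recovered reads also gave 0, while 1.11% of all features were called higher and 0.624% lower by the main test. Ighm rose 2.29-fold in mean FPKM without overlap of the groups, as did 19.8% of all features, and its log2 difference was 0.73 (SE 0.39, adjusted p = 0.439). With the adult libraries left out of the fit, 2 members were tested and Ighm passed with the same difference (adjusted p = 0.0173). In that fit 7.71% of all 17311 features were called higher and 4.67% lower. The difference of Ighm was therefore within or beyond the error depending on whether the spread of adult LG entered it.

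LGSC spheres held few Ig reads at any day. At day 7, 92 of the 268 members were lower than in adult LG and none higher, with 21.1% of all 17698 features called lower and 14.2% higher. The 146 members tested passed the filter nearly all because of their adult level, so their direction was largely set by it. With FPKM rescaled to recovered reads 82 members and 10.6% of all features were lower, and 30.6% of all features were higher. The adult libraries lay above all day 7 libraries for 99 members (29.5% of all features). Ighm was at 0 in every passage 2 sphere library except 1 of day 14, where it had 1 read, and adult LG was at least 99.2-fold higher than day 7 spheres. Ighg2b and Ighg2c were at 0 at day 7, with adult LG at least 231-fold and 99.8-fold higher. Igkv4-57-1, also at 0 in spheres, did not pass (adjusted p = 0.0749), nor did Ighg1 (adjusted p = 0.078).

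The V segment with the most reads in spheres was Igkv12-89, on chromosome 6 from 68834846 to 68835307. It was at 0 in all 9 tissue libraries. Spheres had 0 and 1.75 FPKM at day 5, 0, 1.51 and 1.32 FPKM at day 7, 0.33, 1.54 and 1.03 FPKM at day 10 and 0.33, 0.33 and 0 FPKM at day 14, which were 0 to 4 reads a library. With so few reads no order of the culture days can be read. Ighv1-58 had 1 read in each of the 3 day 14 libraries, Igkv1-88 1 read in each day 5 library and in 1 day 7 library, and Igkv4-90 1 read in 1 library of day 5 and 1 of day 10. Every V segment other than Igkv12-89 had at most 3 reads in any passage 2 sphere library.

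Most tested genes of plasma cells were lower in FPKM with the Ig segments. Of the 20 plasma cell genes listed for comparison, 12 were tested at E17.5 and 11 were lower than in adult LG, none higher. Over all features 24.9% were lower and 29.1% higher. The median log2 difference of the tested genes was -1.50 against 0.05 over all features. Jchain, Slamf7 and Tnfrsf17 passed the filter through their adult level, which largely set their direction. Listed genes near 0 in all tissue, such as Derl3, Fkbp11, Creld2 and Pou2af1, were not tested. Sdc1, also too low to be tested in tissue, went the other way. It had 1, 1 and 3 reads in adult LG 1, 2 and 3, 14, 14 and 9 at E17.5 and 11, 9 and 3 at E19.5. At E19.5 8 of the 12 tested genes were lower and none higher, beside 23.9% lower and 30.3% higher over all features. In day 7 spheres 10 of 13 tested were lower and 1 (Sdc1) higher, beside 21.1% lower and 14.2% higher over all features. Mzb1, a chaperone of antibody assembly, had 36.2, 42.5 and 36.8 FPKM in adult LG 1, 2 and 3 and 1.72 to 3.59 FPKM at E17.5. Xbp1, the transcription factor of the secretory programme, was at 89.8, 65.3 and 58.8 FPKM in adult LG and 2.69 to 4.55 FPKM at E17.5. Jchain, the joining chain of IgA and IgM, was at 1.32, 2.38 and 1.98 FPKM, and Prdm1, a defining regulator of plasma cells, was at 0, 0 and 0.14 FPKM. The log2 difference at E17.5 was -3.44 for Mzb1 (adjusted p = 3.4e-06) and -1.41 for Jchain (adjusted p = 0.000128). Mzb1, Xbp1, Jchain, Sec11c, Ell2, Slamf7 and Tnfrsf17 passed at E17.5 under every alternative that tested them. Ccr10 and Irf4 passed in 13 of 15 each, with adjusted p up to 0.28 and 0.198. Txndc5 had 6970, 7718 and 4829 recovered reads in adult LG 1, 2 and 3 and 5709 to 7721 at E17.5. Xbp1 and Sec11c also serve secretory epithelium, so the list is not particular to plasma cells.

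Genes that carry IgA and attract and keep plasma cells were mixed as a list at E17.5. Of 17 genes, 12 were tested there, with 3 lower and 4 higher than in adult LG, beside 24.9% lower and 29.1% higher over all features. At E19.5, 6 of 12 tested were lower and 2 higher, beside 23.9% and 30.3% over all features. In day 7 spheres 8 of 12 tested were lower and 1 higher, beside 21.1% and 14.2% over all features. Pigr, the receptor that carries IgA across the epithelium, had 408, 446 and 158 FPKM in adult LG 1, 2 and 3 and at most 0.06 FPKM in any embryonic library. Ccl28, a chemokine that attracts IgA plasma cells, had 294, 202 and 57.9 FPKM in adult LG and at most 0.76 FPKM in embryos. Tnfsf13, the survival factor APRIL, was at 50.6, 39.1 and 11.5 FPKM in adult LG and 1.68 to 2.67 FPKM at E17.5. These 3 were the ones lower at E17.5, with log2 differences of -8.22, -6.64 and -3.28. The 4 higher at E17.5 were the BAFF receptor Tnfrsf13c (1.46), the integrin Itga4 (1.45), the homing ligand Madcam1 (1.42) and the cytokine Tgfb1 (0.49). In FPKM the 3 lower genes were at their lowest in adult LG 3 among the adult libraries, but as a share of recovered reads Pigr was nearly level, at 0.0616%, 0.0699% and 0.0576% in adult LG 1, 2 and 3. By that share Ccl28 (0.0535%, 0.0381% and 0.0254%) and Tnfsf13 (0.00311%, 0.00249% and 0.00171%) were still lowest in adult LG 3.

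**Figure D5:**
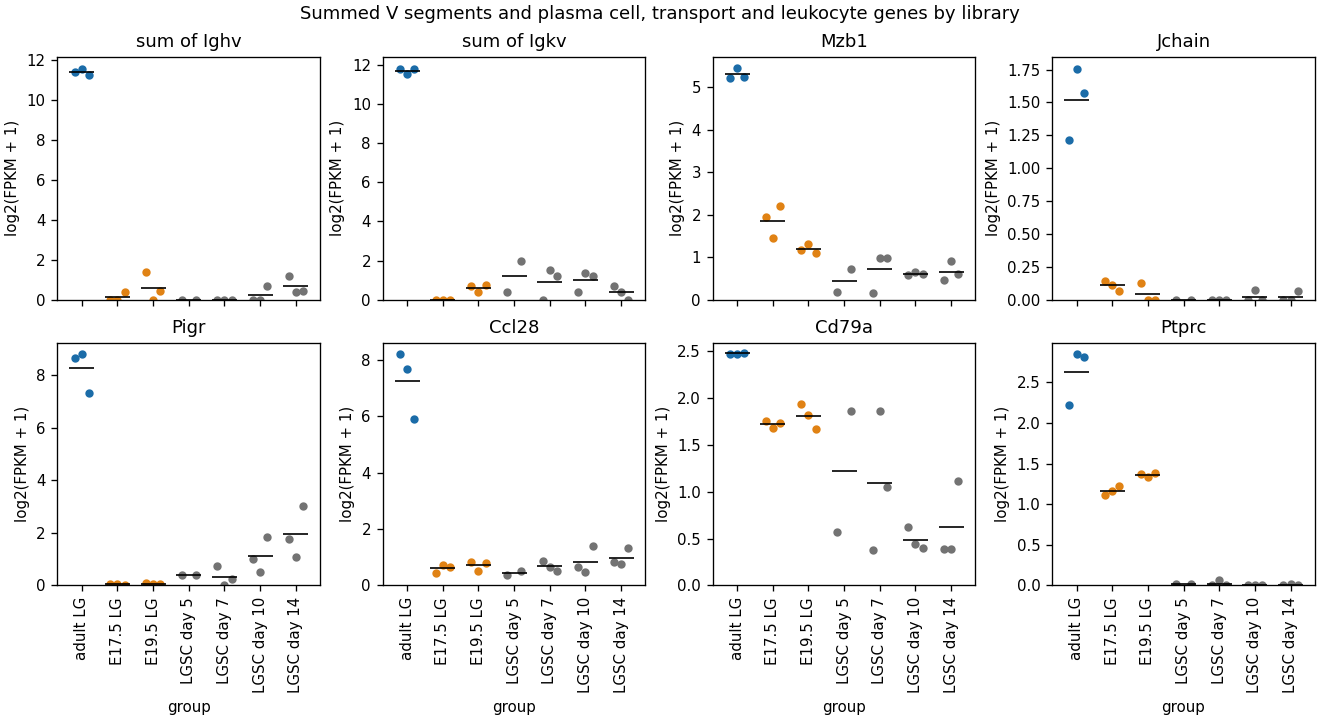
log2(FPKM + 1) of the summed Ighv and Igkv segments and of 6 other genes in each library (points), with group means (lines). The adult libraries lie above all others in every panel, by far for the V sums (2395 to 3020 FPKM for Ighv) and by little for Cd79a.

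Markers of other leukocytes moved with the comparison too. Of the B cell markers, Ms4a1 and Pax5 were at 0.07 FPKM or less in adult LG, and Cd79a was at 4.55, 4.55 and 4.59 FPKM against 2.19 to 2.83 FPKM in embryos. Of 16 B cell genes 6 were tested at E17.5, and 4 of them were lower and 1 (Tnfrsf13c) higher. Of 10 T cell genes 7 were tested, and 6 were lower and 1 (Lck) higher, beside 24.9% lower and 29.1% higher over all features. The T cell genes Cd3d, Cd3g and Cd2 and the B cell gene Blk passed the filter through their adult level, which largely set their direction. The leukocyte gene Ptprc was at 3.64, 6.18 and 5.99 FPKM in adult LG and 1.17 to 1.61 FPKM in embryos. Rescaled to recovered reads, Ptprc at E17.5 no longer passed (adjusted p = 0.0847) and the log2 difference of Cd79a at E19.5 went from -0.67 to 0.01. In day 7 spheres all 4 tested leukocyte genes and 7 of 8 tested T cell genes were lower than in adult LG. Over all features 21.1% were lower and 14.2% higher there. These leukocyte and T cell genes, Cd5 excepted, averaged under 0.5 FPKM in day 7 spheres, so they passed the filter through adult LG. The part of these cells in the Ig result was not tested. Among 9 genes of B cell precursors and switching 1 was tested at E17.5, the DNA repair gene Ung, and it was higher (1.61, adjusted p = 2.02e-05). The others were too low to be tested. Of these, Rag1 had 13 to 46 reads in the embryonic libraries and 0 in adult LG. Ebf1 had 12 to 30 reads in the embryonic libraries and 0, 0 and 11 in adult LG 1, 2 and 3. The rest had a few reads at most in any tissue library. Among 8 Fc receptor genes, which bind antibodies, Fcer1a rose from E17.5 to E19.5 (log2 difference 1.71, adjusted p = 0.021), but it passed in only 8 of 15 alternatives, with adjusted p up to 0.227.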

How the data were processed

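Poly-T selected mRNA was sequenced with 150-bp reads. Per the submitters' processing notes, which name tools without their order, CASAVA 1.8, HISAT2 2.0.5, featureCounts 1.5.0-p3 and the build NCBIM37 were used. The authors deposited FPKM values per gene, and how FPKM was scaled is not given in the sources used here. Gene types and positions came from GENCODE M21 (GRCm38), which held 52403 of the 52636 Ensembl genes. A further 11226 assembled loci entered the tests as features. Groups followed the labels. 21 of 24 samples were used, and a day 5 replicate and spheres of 2 other passages were not analysed here.

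Tissue was fitted with 3 groups together, and day 7 spheres with adult LG, in limma 3.58.1 (R 4.3.3, empirical Bayes) on log2(FPKM + 1), for features with a mean of at least 0.5 FPKM, with Benjamini-Hochberg adjustment over all of them. A fold change on this scale understates that of low genes. The test was checked on simulated data. Named genes were all C and J genes, the 10 most abundant Ighv and Igkv, all Iglv, Ighv1-9, Igkj3 and members at 1 FPKM or more outside adult LG, with the strongest called genes and defining markers of each list. Igkv1-88, Igkv2-112, Ighv1-75, Ighv1-72, Ighv1-81, Ighv8-12, Igkv12-89, Rag1 and Ebf1 were chosen after their values were seen. The members and lists were chosen with earlier results of these data known. Alternatives were a pseudocount of 0.1, no filter, rescaling to recovered reads, limma-voom, a replicate block, other groups in the fit and leaving out each library. Replicate numbers paired the sphere days, with every same-number correlation between 0.26 and 0.72, against -0.61 to 0.44 for different numbers. They did not pair tissue, or adult LG and day 7. Python 3.11.15, numpy 2.4.6, pandas 2.3.3, scipy 1.17.1, edlib and matplotlib 3.10.9 were used.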

Additional observations from a re-analysis of the deposited data

Results flagged for a closer look

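The passage 10 LGSC library, which entered no comparison, had 12 reads (1.49 FPKM) of the kappa segment Igkv12-89, more than the 3 reads taken as the floor, while all 9 tissue libraries had 0. The passage 2 spheres had 0 to 4 reads of it, and the passage 10 library was the deepest, with 25172949 recovered reads.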

How the results depend on the processing

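Members called lower than adult LG numbered 107 at E17.5 and ranged from 92 (only the 2 groups compared) to 112 (limma-voom). At E19.5 they numbered 107 and ranged from 91 to 113, and in day 7 spheres 92, from 69 to 113. The share of all features called lower moved too. It was 21.5% (2 groups) and 10.2% (limma-voom) at E17.5, and 20.6% and 9.87% at E19.5. Leaving out 1 library gave 92 to 110, 91 to 109 and 69 to 98 members. Over all features these fits called 20.6% to 29.4%, 19.3% to 28.3% and 13.3% to 28.2% lower. Without LGSC day 7 library 1, 1 member (Igkv12-89) was higher, as were 9.38% of all features. Between the embryonic ages the count was 0 under every alternative except the fit of only the 2 groups, which called 1 of 2 members tested. That fit called 7.71% of all features higher and 4.67% lower. With the replicate number as a block the counts were 107, 107, 0 and 91 for E17.5, E19.5, E19.5 against E17.5 and day 7 spheres. Of all features, 23.6%, 22.6% and 17.9% were lower with the block at E17.5, at E19.5 and in day 7 spheres. Same-numbered libraries of tissue, and of adult LG and day 7 spheres, correlated at -0.08 to 0.07 in their deviations from the group means, so these share only a number. Across sphere days same-numbered libraries correlated at 0.26 to 0.72, so the numbers pair the spheres. The fit of all sphere days with adult LG called 113 members, and 113 with the sphere number as a random block. That block was an alternative chosen after seeing the data. Of all features, 23.7% and 23.8% were lower in these fits. Cd79a turned to 0.01 at E17.5 by limma-voom, and to 0.01 (rescaled) and 0.02 (limma-voom) at E19.5, and the cause was not tested. Rescaling moved the median log2 difference of all features from 0.05 to 0.57 at E17.5, from 0.09 to 0.52 at E19.5 and from -0.08 to 0.51 in spheres. The share of kappa among light chain V segments was 99.785% to 99.842% and that of the 10 highest V segments 48.3% to 55.7% on leaving out 1 library. The planned shares of IgA and kappa among constant genes gave no value, since Igha and Igkc were listed at 0. Depth limits the J segments and the embryonic V segments most.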
